A study of Mus musculus with 14 samples.

Results

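The 9 genes described here mark neural precursors: Sox1, Pax6, Pax3, Zic1, Neurog1, Neurog2, Olig1, Olig2 and Nes, out of 21883 protein-coding genes of the mouse genome build GRCm38 (mm10). They were taken by name, and every deposited peak of a histone mark or of Mll1 that lay inside a gene or within 10 kb of either end was assigned to it. Of the 9, 8 encode transcription factors. Nes encodes nestin, an intermediate filament of neural stem cells, so the name transcription factor does not hold for it. The study profiled chromatin of blastocyst-derived mouse embryonic stem cells by chromatin immunoprecipitation and sequencing, with 1 library for each antibody and condition, to follow methylation of histone H3 lysine 4 (H3K4) when the methyltransferase Mll1 (Kmt2a) is inhibited or deleted.

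All groups were C57BL/6J cells of genotype Mll1fl/fl; Cre-ER TM, so the untreated cells also carried the floxed alleles and the tamoxifen-inducible recombinase. One group received MM-401, an Mll1 inhibitor, at 100 µM, another received 4-hydroxytamoxifen (4-OHT) at 5 µM to delete Mll1, both for 9 days over 3 passages, and the last was left untreated. All were grown without feeders on Matrigel with leukemia inhibitory factor, 5% serum and 15% serum replacement. No group without the recombinase and no vehicle group is among the labelled samples, so the action of 4-OHT itself and the deletion cannot be told apart. H3K4me1, H3K4me2 and H3K4me3 were mapped in all 3 conditions, and Mll1 in untreated cells only. The peak lists hold no measure of the deletion, and Kmt2a itself carried 145, 137 and 136 H3K4me3 tags per M (1000000) filtered tags in MM-401, 4-OHT and untreated cells. Its H3K4me1 stood at 51.4, 80.0 and 47.8 and its H3K4me2 at 81.3, 89.6 and 76.4 tags per M in MM-401, 4-OHT and untreated cells.

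Neural precursor genes are silent or nearly so in pluripotent cells, where their CpG-rich starts are known to carry H3K4me3 together with the Polycomb mark H3K27me3, a state called bivalent. H3K4me3 is typical of gene starts, H3K4me2 of starts and their flanks, and H3K4me1 of enhancers and flanks. Mll1 belongs to a family of H3K4 methyltransferases that share subunits such as Wdr5, and MM-401 is known to block the contact between Mll1 and Wdr5. Neither H3K27me3 nor RNA was analysed here, so neither bivalency nor expression of the 9 genes can be read from these lists.

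The starts of these genes differed widely in CpG content. The promoter table of RefSeq (GRCm38.p6, 250 bases before to 50 bases after the start, 300 bases in all) held 7 of the 9 genes, all but Pax3 and Olig1, with 2 entries for Pax6. Sox1 had 37 CpG dinucleotides, Neurog1 32, Zic1 31, Olig2 25, Nes 18, Pax6 18 and 16, and Neurog2 10, against a median of 13.0 over 21262 promoters. The 3 promoters richest in CpG, the poorest one and the one with a TATA motif are shown, to set side by side the unlike starts that all carried H3K4me3 in every condition. Capitals mark CG and any match of ATGCAAAT or TATAAA.
Sox1, chr8:12395269-12395568, plus strand: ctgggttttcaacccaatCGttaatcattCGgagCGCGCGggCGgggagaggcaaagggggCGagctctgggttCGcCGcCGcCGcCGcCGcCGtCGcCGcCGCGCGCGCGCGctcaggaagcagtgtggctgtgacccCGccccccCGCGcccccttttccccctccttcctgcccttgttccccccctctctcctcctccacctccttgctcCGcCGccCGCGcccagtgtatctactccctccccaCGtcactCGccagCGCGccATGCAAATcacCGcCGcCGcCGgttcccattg
Neurog1, chr13:56252131-56252430, minus strand: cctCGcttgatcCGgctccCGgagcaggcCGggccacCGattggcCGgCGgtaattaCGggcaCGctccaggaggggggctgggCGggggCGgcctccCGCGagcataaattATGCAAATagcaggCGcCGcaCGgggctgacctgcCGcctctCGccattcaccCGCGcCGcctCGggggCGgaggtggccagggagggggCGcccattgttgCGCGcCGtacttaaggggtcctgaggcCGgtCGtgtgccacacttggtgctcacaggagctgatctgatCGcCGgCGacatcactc
Zic1, chr9:91365719-91366018, minus strand: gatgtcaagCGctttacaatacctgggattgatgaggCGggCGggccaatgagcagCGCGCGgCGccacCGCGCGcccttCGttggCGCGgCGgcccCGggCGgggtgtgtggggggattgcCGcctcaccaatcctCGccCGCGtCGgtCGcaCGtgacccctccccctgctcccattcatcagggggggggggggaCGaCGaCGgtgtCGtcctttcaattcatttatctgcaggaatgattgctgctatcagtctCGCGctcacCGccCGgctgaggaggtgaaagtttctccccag
Olig2, chr16:91225300-91225599, plus strand: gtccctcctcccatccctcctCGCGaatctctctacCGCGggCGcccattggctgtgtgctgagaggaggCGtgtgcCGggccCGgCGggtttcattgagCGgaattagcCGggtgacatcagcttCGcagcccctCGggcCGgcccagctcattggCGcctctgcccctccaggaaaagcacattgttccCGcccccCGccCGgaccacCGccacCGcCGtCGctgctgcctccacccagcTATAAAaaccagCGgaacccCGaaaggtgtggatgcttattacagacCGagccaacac
Neurog2, chr3:127632886-127633185, plus strand: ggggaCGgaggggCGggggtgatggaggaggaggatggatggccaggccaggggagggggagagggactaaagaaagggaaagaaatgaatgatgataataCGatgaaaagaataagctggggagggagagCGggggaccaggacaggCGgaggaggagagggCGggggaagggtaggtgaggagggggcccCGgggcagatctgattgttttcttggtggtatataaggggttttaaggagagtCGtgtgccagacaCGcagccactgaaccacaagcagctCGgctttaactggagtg
The letters ATGCAAAT, the octamer bound by POU factors such as Oct4, were found on either strand in the Sox1 and Neurog1 windows and in 1.66% of all promoters. TATAAA was found only in the Olig2 window among the 8 entries and in 12.6% of all promoters. GGGCGG, the Sp1 motif, was found in the entries of Sox1, Zic1, Neurog1, Neurog2, Olig2 and Nes and in 46.2% of all promoters. CCAAT was found in Sox1, Zic1, Neurog1, Olig2 and the first Pax6 entry and in 38.2% of all promoters, while CAGCTG, an E-box of proneural factors, was in none of the 8 entries and in 15.6% of all promoters. A match is a description of the letters alone. Each of the 8 entries was overlapped by at least 1 peak of H3K4me1, H3K4me2 and H3K4me3 in each of the 3 conditions.

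Values are tags left after removal of duplicates, summed over a gene's peaks and divided by the library's filtered tags in M. Intervals are exact at 95% and cover counting error only. No library had a replicate, so no test between conditions was possible, and a difference whose interval excludes 0 may still be smaller than the spread between cultures. Filtered depth was 22.2, 61.8 and 36.9 M tags for H3K4me1 in MM-401, 4-OHT and untreated cells, 19.8, 48.6 and 40.1 M for H3K4me2, and 12.9, 26.4 and 25.3 M for H3K4me3. The modelled fragment measured 208, 194 and 190 bp for H3K4me1 in the same order. It was 238, 179 and 197 bp for H3K4me2 and 293, 186 and 184 bp for H3K4me3. The inputs of the marks held 12.2, 55.0 and 36.6 M filtered tags in MM-401, 4-OHT and untreated cells. The part of these differences in called widths and tags per kb was not tested. The MM-401 libraries were processed in another folder than the rest, per the file headers, so that folder and MM-401 cannot be told apart. All 8 pluripotency markers examined (Pou5f1, Nanog, Zfp42, Esrrb, Tdgf1, Dppa5a, Sall4 and Utf1) had H3K4me3 peaks in each condition, with medians of 204, 216 and 158 tags per M in MM-401, 4-OHT and untreated cells.

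All 9 genes carried all 3 marks in all 3 conditions, as did 73.9% of the 21883 genes. At the 9 genes, H3K4me1 peaks numbered 36 in MM-401, 38 in 4-OHT and 40 in untreated cells. H3K4me2 peaks numbered 33, 37 and 35, and H3K4me3 peaks 28, 35 and 32, in MM-401, 4-OHT and untreated cells. No peak was counted for more than 1 of the 9. In untreated cells, H3K4me3 peaks covered a median of 29.9% of the window of the 9 genes, against 10.3% over all genes with a peak, but with a lower median density of 6.34 tags per M per kb of peak, against 10.4. H3K4me1 peaks covered a median of 50.4%, against 25.8%, and H3K4me2 peaks 44.5%, against 18.2%. By these medians the neural genes had more of their surroundings marked, at a lower H3K4me3 density. Pax3, with the longest window of 115870 bp, lay below the all-gene medians at 5.10% for H3K4me3, 10.7% for H3K4me2 and 15.9% for H3K4me1. Olig1, at 15.3 tags per M per kb of peak, lay above the all-gene H3K4me3 density. The covered percent also depends on gene length, which was not matched.

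**Figure D1:**
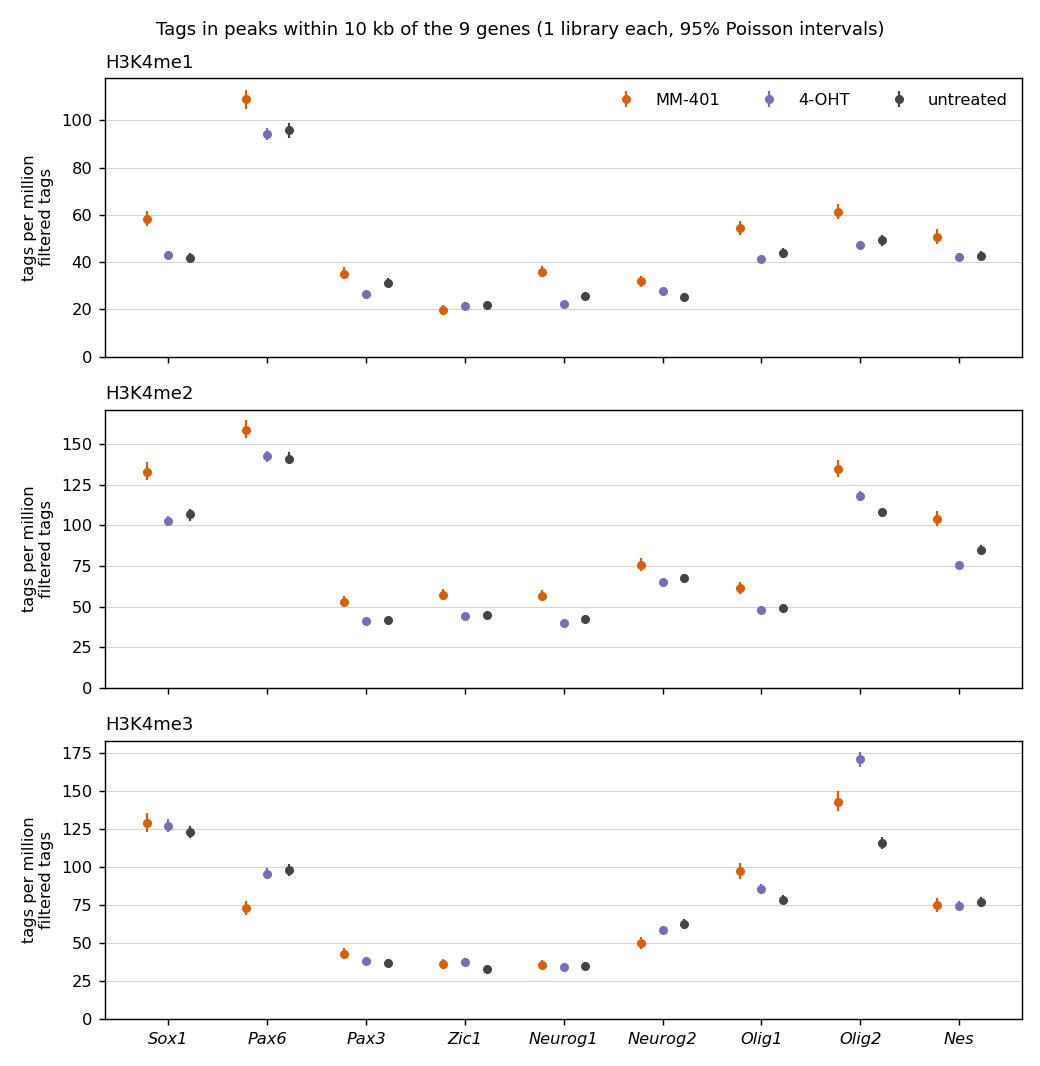
Tags per M filtered tags in peaks within 10 kb of each gene (y axis) for H3K4me1, H3K4me2 and H3K4me3 in MM-401, 4-OHT and untreated cells; points are single libraries and bars are 95% Poisson intervals. MM-401 points of H3K4me2 lie above the untreated points at all 9 genes, and Olig2 H3K4me3 is highest in 4-OHT cells at 171 tags per M.

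No gene of the 9 differed by 1.5-fold or more in any of the 6 comparisons of a treatment with untreated cells. Over all genes with peaks in both libraries, the share past 1.5-fold in either direction was 16.8% for H3K4me1, 5.91% for H3K4me2 and 9.23% for H3K4me3 in MM-401 cells. In 4-OHT cells it was 14.9% for H3K4me1, 5.07% for H3K4me2 and 4.52% for H3K4me3. With 9 genes, a count of 0 is near those shares. Relative to the all-gene median of -0.12 on the log2 scale, H3K4me1 of Sox1 (0.60) and Neurog1 (0.61) passed 1.5-fold in MM-401 cells. The Neurog1 sum includes an MM-401 peak that runs past the window. Without subtraction of that median, its log2 ratio is 0.49, or 0.34 with peaks clipped to the window. Per kb of peak it is 0.21, against 0.23 over all genes. None of the 9 lost every peak of a mark, against 4.30%, 3.23% and 4.32% of genes for H3K4me1, H3K4me2 and H3K4me3 in MM-401 cells and 0.674%, 0.555% and 0.943% in 4-OHT cells. Both treatments are set against the same untreated libraries, so their values are given side by side and not compared as independent results.

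Below that fold, H3K4me1 and H3K4me2 were mostly higher in MM-401 cells. H3K4me1 was higher at 8 of the 9 genes, with a median log2 ratio of MM-401 to untreated of 0.31, against -0.12 over all genes, and 35.7% of all genes were higher. H3K4me2 was higher at 9 of 9, with a median of 0.33 against 0.07 over all genes, of which 63.3% were higher. H3K4me3 was higher at 6 and lower at 3, with a median of 0.07 against 0.09 over all genes, of which 61.0% were higher. Summed peak width hardly moved, with median log2 ratios of -0.00 for H3K4me1 and -0.01 for H3K4me2, against -0.33 and -0.20 over all genes. Per kb of peak the H3K4me1 median was 0.27 against 0.23 over all genes, and the H3K4me2 median 0.34 against 0.28. So the genes stood above the all-gene medians in summed tags, while in density they were close to them.

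In 4-OHT cells the ratios of the 9 genes were small. The median log2 ratio was -0.03 for H3K4me1, with 2 genes higher and 7 lower, against 0.15 over all genes, and none of the 9 was above that all-gene median. It was -0.03 for H3K4me2, with 2 higher and 7 lower, against 0.05, and 0.05 for H3K4me3, with 5 higher and 4 lower, against 0.02. Of all genes, 70.0% were higher for H3K4me1, 60.8% for H3K4me2 and 55.2% for H3K4me3 in 4-OHT cells. Per kb of peak the H3K4me1 medians were -0.11 for the 9 genes and -0.12 over all genes, so the distance between them lay in the summed tags and not in the density. The medians per kb were -0.05 against -0.09 over all genes for H3K4me2 and -0.01 against -0.08 for H3K4me3.

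**Figure D2:**
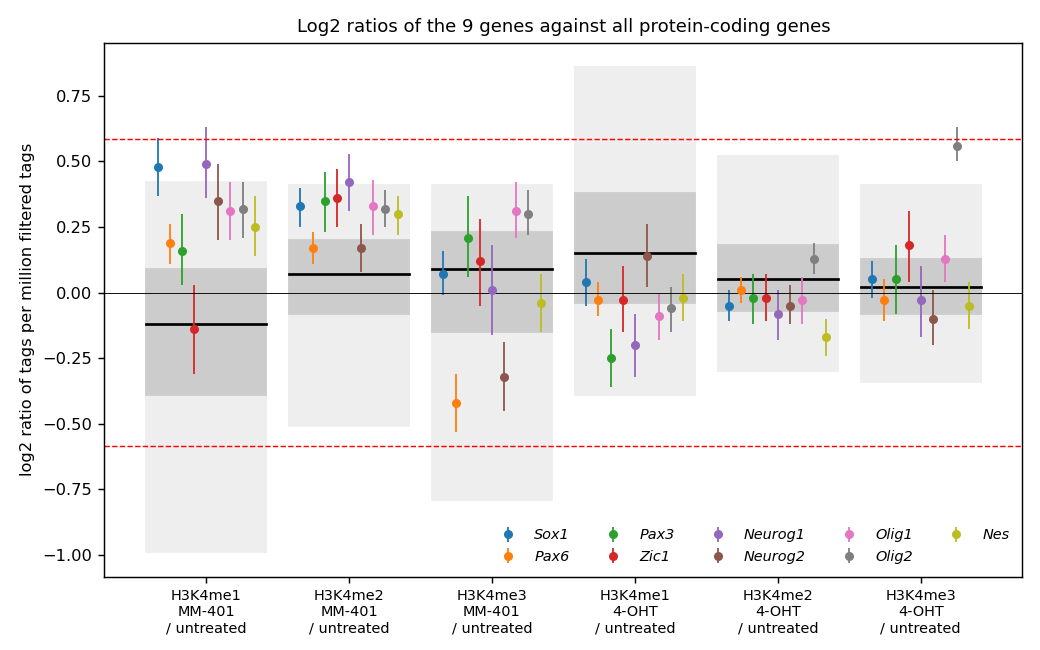
Log2 ratio of tags per M, treated over untreated (y axis), for each gene in 6 comparisons, with 95% counting intervals; dark boxes reach from the lower to the upper quartile of all genes, light boxes from percentile 5 to 95, black lines their medians, and dashed lines 1.5-fold. All 9 genes lie between the dashed lines, with Olig2 H3K4me3 in 4-OHT cells nearest to them at 0.56.

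Sox1 (chromosome 8, 12395519 to 12399555) encodes a SoxB1 factor that is among the earliest markers of the neural plate. Its H3K4me3 stood at 129 (123 to 136) tags per M in MM-401, 127 (123 to 132) in 4-OHT and 123 (119 to 127) in untreated cells, and the intervals overlap. H3K4me2 stood at 133 (128 to 139) in MM-401, 103 (100 to 106) in 4-OHT and 107 (103 to 110) in untreated cells, a log2 ratio of 0.33 (0.25 to 0.40) for MM-401. H3K4me1 stood at 58.2 (55.1 to 61.5) in MM-401, 42.8 (41.2 to 44.5) in 4-OHT and 41.7 (39.6 to 43.8) in untreated cells, a log2 ratio of 0.48 (0.37 to 0.59) for MM-401. For both H3K4me1 and H3K4me2 the MM-401 cells were high and the other two conditions were close.

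The marks around Sox1 formed separate blocks. The H3K4me3 block over the start, merged from the 3 conditions, reached from 1.7 kb before it to 4.0 kb after it. It held 82.3 tags per M in MM-401, 76.1 in 4-OHT and 70.4 in untreated cells. The called widths were unequal, at 5524 bp in MM-401, 4737 bp in 4-OHT and 4850 bp in untreated cells. The block 5.7 to 3.2 kb upstream was weaker and went the other way in MM-401 cells, at 4.18 against 6.44 in 4-OHT and 5.98 in untreated cells, a log2 ratio of -0.52 (-0.99 to -0.06) for MM-401. The H3K4me3 block 4.3 to 7.1 kb after the start held 14.5 in MM-401, 15.8 in 4-OHT and 17.8 in untreated cells. Its log2 ratio for MM-401 was -0.30 (-0.56 to -0.05). Another H3K4me3 block lay 11.8 to 8.0 kb upstream and holds an annotated end of the noncoding gene Sox1ot, and it was level at 28.4 in MM-401, 27.3 in 4-OHT and 28.9 in untreated cells. H3K4me1 had a short block between 0.0 and 0.9 kb, with 1.89 tags per M in MM-401, 0.745 in 4-OHT and 1.22 in untreated cells, and a long one from 1.7 to 8.4 kb downstream, with 25.1 in MM-401, 16.4 in 4-OHT and 15.9 in untreated cells. The downstream H3K4me1 block, past 1.5-fold, had a log2 ratio of 0.66 for MM-401. The widest H3K4me2 peak measured 10056 bp in MM-401, 8997 bp in 4-OHT and 6005 bp in untreated cells. The untreated list holds 2 peaks of 6005 and 2939 bp there, 167 bp apart, and after joining peaks at most 500 bp apart the log2 ratio of the widest peak in MM-401 cells is 0.14 in place of 0.74.

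Sox1 was the one gene of the 9 with Mll1 peaks in its window, against 15.8% of all genes with at least 1. One peak of 164 bp (chromosome 8, 12391724 to 12391887) lay 3.8 to 3.6 kb before the start and another of 177 bp (12397616 to 12397792) lay 2.1 to 2.3 kb after it, inside the gene. Each held 11 tags, with a MACS false discovery rate of 2.88% and 1.75%. Both lay inside peaks of all 3 marks in each condition. For H3K4me3, the upstream one lay in the block that was lower in MM-401 cells, with 54 tags there. The one in the gene lay in the block over the start, which was higher in MM-401 cells. Around the upstream one, H3K4me1 stood at 10.1 in MM-401, 7.68 in 4-OHT and 7.35 in untreated cells. H3K4me2 there stood at 11.3 in MM-401, 10.4 in 4-OHT and 11.8 in untreated cells. The Mll1 library had 0.285% of its 30.1 M tags in peaks and a modelled fragment of 53 bp, so Mll1 at the other 8 genes was not detectable in this list, which does not show that it was absent. Only the peak inside Sox1 remained with a window of 1 kb, and a window of 50 kb added a peak at Nes.

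Pax6 (chromosome 2, 105668896 to 105698410), a paired-homeobox factor of the forebrain, eye and ventral spinal cord, was the gene with the lowest H3K4me3 ratio in MM-401 cells. Its H3K4me3 stood at 73.2 (68.6 to 78.0) tags per M in MM-401, 95.6 (91.9 to 99.4) in 4-OHT and 97.8 (94.0 to 102) in untreated cells. MM-401 cells were low and the other two overlapped, with log2 ratios of -0.42 (-0.53 to -0.31) for MM-401 and -0.03 (-0.11 to 0.05) for 4-OHT. A ratio lower than that for MM-401 was found in 12.0% of all genes. Per kb of peak the Pax6 log2 ratio for MM-401 was -0.23, and in summed peak width it was -0.18. H3K4me1 and H3K4me2 of Pax6 did not follow H3K4me3, at 109 and 159 tags per M in MM-401, 94.2 and 143 in 4-OHT and 95.8 and 141 in untreated cells.

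The lower H3K4me3 of Pax6 in MM-401 cells was spread along the gene and uneven. The strongest block, 4.8 to 9.4 kb after the start, lay between the 2 promoters listed by RefSeq and held 32.3 tags per M in MM-401, 36.7 in 4-OHT and 36.5 in untreated cells. The block of 11.0 to 14.4 kb, which holds the second promoter, held 5.42 in MM-401, 9.81 in 4-OHT and 9.93 in untreated cells, a log2 ratio of -0.88 (-1.28 to -0.49) for MM-401, over 2370 bp of peak in MM-401, 3482 bp in 4-OHT and 3151 bp in untreated cells. The block of 17.8 to 22.0 kb held 12.5 in MM-401, 19.0 in 4-OHT and 19.4 in untreated cells, a log2 ratio of -0.63 (-0.89 to -0.37) for MM-401. The first promoter lay in a block of 13.6 in MM-401, 15.9 in 4-OHT and 17.3 in untreated cells, and the block 9.7 to 7.3 kb upstream, which holds an end of the noncoding gene Paupar, held 9.36 in MM-401, 10.1 in 4-OHT and 13.0 in untreated cells. All 5 blocks with peaks in MM-401 and untreated cells were thus lower in MM-401 cells, from -0.18 to -0.88. The window also touches Elp4 and the noncoding Pax6os1.

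Pax3 (chromosome 1, 78101267 to 78197136), a paired-box factor of the dorsal neural tube and neural crest, had slightly more H3K4me3 tags in MM-401 cells but no more per kb of peak. Its H3K4me3 stood at 42.9 (39.4 to 46.7) tags per M in MM-401, 38.2 (35.9 to 40.6) in 4-OHT and 37.0 (34.7 to 39.5) in untreated cells, a log2 ratio of 0.21 (0.06 to 0.37) for MM-401. Per kb of peak the log2 ratio was -0.04. The block at the start was level at 16.4 in MM-401, 15.3 in 4-OHT and 15.8 in untreated cells. The start was taken as the higher end of the gene, since the promoter table did not list Pax3. A weak block 5.3 to 2.8 kb upstream, which holds an end of the noncoding gene Gm33152, held 4.87 in MM-401, 3.10 in 4-OHT and 1.82 in untreated cells. These sums come from unequal called widths of 2454 bp in MM-401, 2002 bp in 2 peaks in 4-OHT and 1094 bp in untreated cells, with 46 tags in untreated cells, so no ratio is read from them. H3K4me2 of the block stood at 9.04 in MM-401, 5.54 in 4-OHT and 5.82 in untreated cells. Next to it, the block 7.4 to 6.2 kb upstream was not called in MM-401 cells and held 1.44 in 4-OHT and 2.37 in untreated cells. In the body of the long gene, H3K4me1 in 4-OHT cells was mixed. Blocks 28.3 to 30.5 kb and 75.9 to 78.3 kb after the start had log2 ratios of -0.64 and -0.56 for 4-OHT, and the block 55.4 to 58.2 kb after it 0.26, at 5.31 in MM-401, 4.79 in 4-OHT and 4.01 in untreated cells. The block 38.5 to 40.6 kb after the start was not called in 4-OHT cells and held 2.66 in MM-401 and 2.47 in untreated cells. Its 91 untreated tags would be 152 at the 4-OHT depth, and it was the one untreated peak at the 9 genes, over the 3 marks, with no overlapping 4-OHT peak. Pax3 had the lowest H3K4me1 ratio of the 9 in 4-OHT cells, at 35.1 (32.7 to 37.7) in MM-401, 26.3 (25.0 to 27.6) in 4-OHT and 31.3 (29.5 to 33.2) in untreated cells, a log2 ratio of -0.25 (-0.36 to -0.14).

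Zic1 (chromosome 9, 91358058 to 91365768), a zinc-finger factor of the dorsal neural tube and cerebellum, was the exception in H3K4me1. This mark stood at 19.9 (18.1 to 21.8) tags per M in MM-401, 21.5 (20.4 to 22.7) in 4-OHT and 21.9 (20.4 to 23.5) in untreated cells, and the intervals overlap, with a log2 ratio of -0.14 (-0.31 to 0.03) for MM-401. The untreated sum includes 2 weak blocks 11.3 to 13.3 kb and 14.0 to 15.7 kb after the start, of 2.47 and 2.12 tags per M in untreated cells, that were not called in MM-401 cells. Over the gene and its start, the H3K4me1 block held 15.0 in MM-401, 12.5 in 4-OHT and 11.9 in untreated cells. At the start, H3K4me2 stood at 28.6 in MM-401, 19.6 in 4-OHT and 19.4 in untreated cells, a log2 ratio of 0.56 for MM-401, and H3K4me3 at 22.2 in MM-401, 19.8 in 4-OHT and 16.7 in untreated cells, a log2 ratio of 0.41 (0.19 to 0.63) for MM-401 and 0.24 (0.05 to 0.43) for 4-OHT. The start block also holds an annotated end of the neighbouring Zic4, so its tags cannot be given to one gene. Zic1 had the lowest H3K4me3 density of the 9 in untreated cells, at 4.00 tags per M per kb of peak.

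Neurog1 (chromosome 13, 56250478 to 56252180) and Neurog2 (chromosome 3, 127632733 to 127635636) encode proneural basic helix-loop-helix factors that start neuronal differentiation. H3K4me1 of Neurog1 stood at 36.0 (33.5 to 38.5) tags per M in MM-401, 22.2 (21.0 to 23.4) in 4-OHT and 25.5 (23.9 to 27.2) in untreated cells. MM-401 cells were high and 4-OHT cells low, with log2 ratios of 0.49 (0.36 to 0.63) and -0.20 (-0.32 to -0.08). H3K4me1 peaks covered more in MM-401 cells, and per kb of peak the log2 ratio for MM-401 was 0.21. H3K4me2 stood at 56.8 (53.5 to 60.2) in MM-401, 40.1 (38.3 to 41.9) in 4-OHT and 42.4 (40.4 to 44.5) in untreated cells. H3K4me3 was level, at 35.2 in MM-401, 34.2 in 4-OHT and 34.9 in untreated cells. The stronger H3K4me3 block lay outside the gene: that 9.0 to 5.7 kb upstream, where the annotation lists no gene, held 19.3 in MM-401, 20.9 in 4-OHT and 19.8 in untreated cells, and the block at the start 15.9 in MM-401, 13.3 in 4-OHT and 15.2 in untreated cells.

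Neurog2 had lower summed H3K4me3 in MM-401 cells, and little of the difference lay at its start. Per kb of peak its log2 ratio for MM-401 was -0.05, and in summed peak width it was -0.27. The window held 50.1 (46.3 to 54.1) tags per M in MM-401, 58.5 (55.7 to 61.5) in 4-OHT and 62.5 (59.5 to 65.7) in untreated cells, log2 ratios of -0.32 (-0.45 to -0.19) for MM-401 and -0.10 (-0.20 to 0.01) for 4-OHT. The start block, over the promoter poorest in CpG, was level at 38.6 in MM-401, 38.7 in 4-OHT and 39.5 in untreated cells. The block 6.0 to 3.8 kb upstream was not called in MM-401 cells and held 5.30 in 4-OHT and 6.13 in untreated cells. At an equal rate its 155 untreated tags would be 79.3 tags at the MM-401 depth. The part of depth in its absence was not tested. The neighbouring block 8.3 to 6.3 kb upstream was called in MM-401 cells with 58 tags. That neighbour held 4.49 in MM-401, 6.89 in 4-OHT and 7.60 in untreated cells, a log2 ratio of -0.76 (-1.21 to -0.33) for MM-401. Both upstream blocks lie over ends of the noncoding gene Gm40147, while H3K4me2 across them stood at 22.1 in MM-401, 20.3 in 4-OHT and 20.3 in untreated cells.

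**Figure D3:**
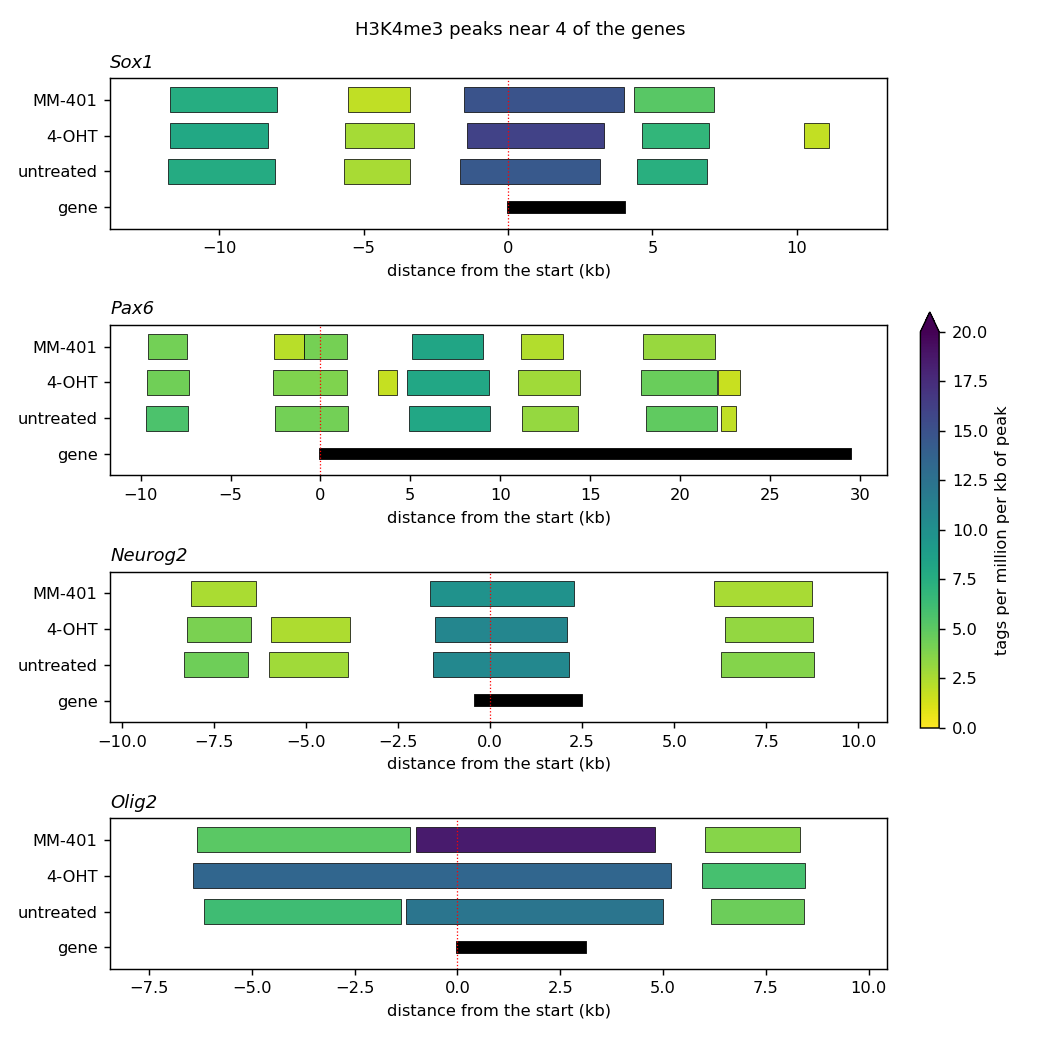
H3K4me3 peaks at Sox1, Pax6, Neurog2 and Olig2 by distance from the start in kb (x axis), 1 row per condition, coloured by tags per M per kb of peak, with the gene as a black bar. The Neurog2 peak 6.0 to 3.8 kb upstream is missing in MM-401 cells, and Olig2 has 1 peak of 11620 bp over its start in 4-OHT cells where the untreated list has 2.

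Olig1 (chromosome 16, 91269769 to 91271939) and Olig2 (chromosome 16, 91225550 to 91228677), basic helix-loop-helix factors of motor neuron and oligodendrocyte precursors, lie 41 kb apart and shared no peak. Olig2 had the highest H3K4me3 ratio of the 9 in 4-OHT cells. Its H3K4me3 stood at 143 (137 to 150) tags per M in MM-401, 171 (166 to 176) in 4-OHT and 116 (112 to 120) in untreated cells. The 3 intervals do not overlap, and untreated cells were lowest, with log2 ratios of 0.30 (0.22 to 0.39) for MM-401 and 0.56 (0.50 to 0.63) for 4-OHT, or 1.48-fold. This lies just inside 1.5-fold and above 97.1% of all genes.

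The Olig2 peak over the start measured 5811 bp in MM-401, 11620 bp in 4-OHT and 6241 bp in untreated cells. In MM-401 and untreated cells a second peak lies beside it, at a distance of 152 and 127 bp, so the greater width in 4-OHT cells is the joining of both, and after joining peaks at most 500 bp apart the log2 ratio of the widest peak is 0.06 in place of 0.90. The tags were higher all the same: the joined block held 135 in MM-401, 157 in 4-OHT and 106 in untreated cells over 10992, 11620 and 11031 bp of peak. The block 5.9 to 8.4 kb downstream was also higher in 4-OHT cells, at 8.36 in MM-401, 14.7 in 4-OHT and 10.2 in untreated cells. Per kb of peak, Olig2 H3K4me3 was 10.8 in MM-401, 12.1 in 4-OHT and 8.72 in untreated cells. With a window of 1 kb the log2 ratio for 4-OHT is 1.04 and passes 1.5-fold, because the separate upstream peak then drops out of the untreated sum. H3K4me1 of Olig2, a single peak of 15646 bp in MM-401, 15659 bp in 4-OHT and 15221 bp in untreated cells, was 61.3 in MM-401, 47.1 in 4-OHT and 49.2 in untreated cells, and H3K4me2 was 135 in MM-401, 118 in 4-OHT and 108 in untreated cells.

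Olig1 had the highest H3K4me3 density of the 9, at 22.4 tags per M per kb of peak in MM-401, 16.0 in 4-OHT and 15.3 in untreated cells. Summed over the window it stood at 97.2 (91.9 to 103) in MM-401, 85.5 (82.0 to 89.1) in 4-OHT and 78.2 (74.8 to 81.8) in untreated cells. As at Olig2 untreated cells were lowest, with log2 ratios of 0.31 (0.21 to 0.42) for MM-401 and 0.13 (0.04 to 0.22) for 4-OHT, but the order of the treatments was reversed. Nearly all of it lay in 1 block from 1.2 kb before to 3.1 kb after the start, taken as the lower end of the gene. A block 7.4 to 6.2 kb upstream was not called in MM-401 cells and held 2.20 in 4-OHT and 1.74 in untreated cells, or 44 untreated tags.

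Nes (chromosome 3, 87971093 to 87980451) encodes nestin, and its H3K4me3 was level, at 74.8 (70.2 to 79.7) tags per M in MM-401, 74.2 (71.0 to 77.6) in 4-OHT and 76.9 (73.6 to 80.4) in untreated cells, with overlapping intervals. In MM-401 cells this sum combined a higher start with lower flanks. The start block held 45.5 in MM-401, 38.8 in 4-OHT and 39.3 in untreated cells, a log2 ratio of 0.21 (0.06 to 0.36) for MM-401. The block 15.2 to 17.8 kb after the start, which holds an end of Bcan, held 14.8 in MM-401, 18.7 in 4-OHT and 20.3 in untreated cells, a log2 ratio of -0.46 (-0.71 to -0.22) for MM-401. The block 11.4 to 9.5 kb upstream, at the noncoding gene Gm32518, held 14.5 in MM-401, 14.9 in 4-OHT and 17.3 in untreated cells. H3K4me2 of Nes was 104 (99.9 to 109) in MM-401, 75.7 (73.3 to 78.2) in 4-OHT and 85.1 (82.2 to 88.0) in untreated cells, so the intervals do not overlap, and its log2 ratio for 4-OHT of -0.17 (-0.24 to -0.10) was the lowest of the 9 for that mark.

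Split into single blocks (peaks of the 3 lists of a mark merged where they overlap), the genes held 37 H3K4me1, 36 H3K4me2 and 34 H3K4me3 blocks, of which 32, 32 and 26 had a peak in each condition. For H3K4me3 in MM-401 cells, the 10 blocks with a start had a median log2 ratio of 0.14, and 7 were higher and 3 lower. The 16 blocks without a start that had peaks in both had a median of -0.29, with 3 higher and 13 lower. Over all blocks near protein-coding genes these medians were 0.15 and -0.26, and 70.0% of blocks with a start and 32.1% without were higher. So the neural genes stood close to the rest in this split. A start here is that of any protein-coding gene in the promoter table. Gene ends stood in for Pax3 and Olig1 only, so other genes missing from that table have no start in the all-block values. Past 1.5-fold lower were 1 of the 10 blocks with a start, against 5.12% of all, and 2 of the 16 without, against 30.0%. For H3K4me2 in MM-401 cells the 10 start blocks had a median of 0.33 against 0.17 over all, and 10 of 10 were higher against 82.5%. For H3K4me1 in MM-401 cells, blocks with and without a start had medians of 0.30 and 0.31, against 0.09 and 0.01 over all. In 4-OHT cells the H3K4me3 medians were -0.02 for both classes, against 0.00 with a start and 0.02 without.

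**Figure D4:**
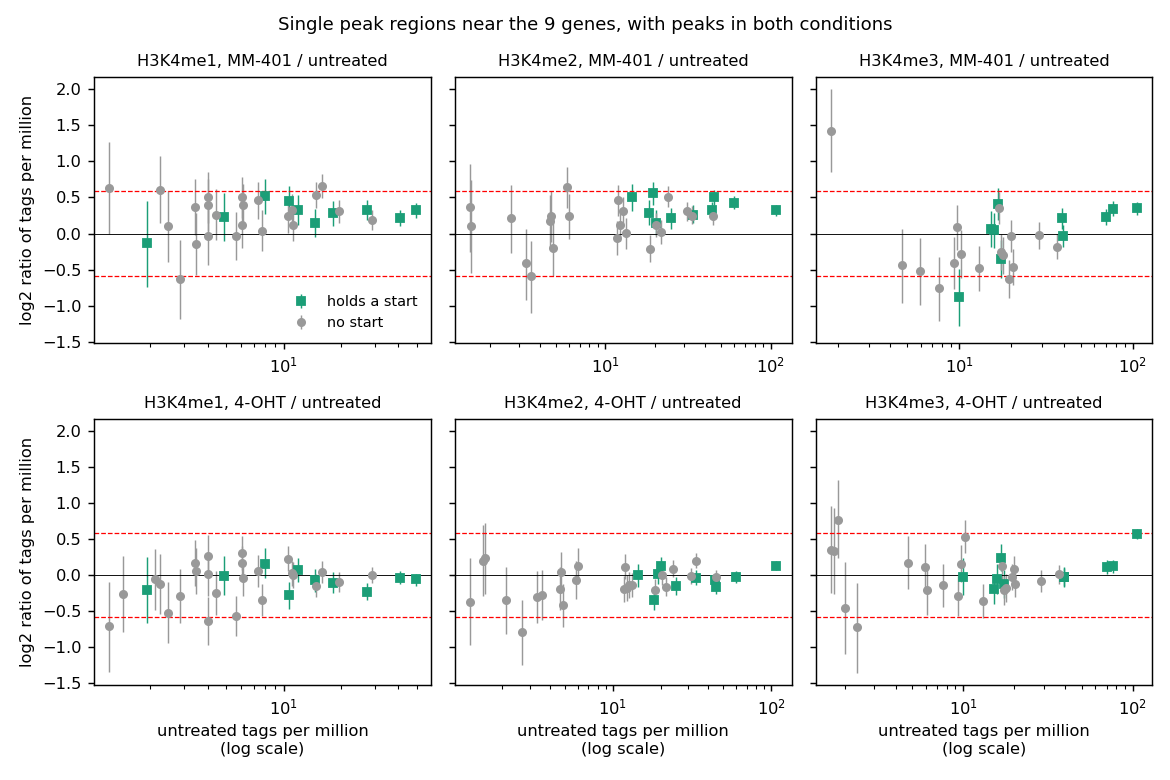
Log2 ratio of tags per M, treated over untreated (y axis), against untreated tags per M on a log scale (x axis) for single blocks with peaks in both conditions; squares hold a start, circles do not, bars are 95% counting intervals and dashed lines mark 1.5-fold. In the H3K4me3 panel for MM-401, 13 of 16 circles lie below 0, while 7 of 10 squares lie above it. Over all blocks near protein-coding genes, 32.1% without a start and 70.0% with a start were above 0.

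Peaks that disappeared from the lists were few. Without an overlapping peak in MM-401 cells were 3 of 40 untreated H3K4me1 peaks (7.50%), 2 of 35 H3K4me2 peaks (5.71%) and 5 of 32 H3K4me3 peaks (15.6%), against 34.4%, 33.8% and 38.2% of all untreated peaks of those marks. In 4-OHT cells it was 1 of 40 (2.50%) for H3K4me1 and 0 of 35 and 0 of 32 for H3K4me2 and H3K4me3, against 9.35%, 6.44% and 8.19%. The all-peak shares cover every peak of a list and were not matched to the peaks of the 9 genes in width or tags. Of the 5 H3K4me3 peaks missing in MM-401 cells, the Neurog2 peak had 155 untreated tags, and those of Pax6, Pax3, Zic1 and Olig1 had 42, 60, 51 and 44. The MM-401 H3K4me3 library held 51.2% of the untreated tags, and the part of depth in these 5 absences was not tested. Peaks with no overlapping untreated peak numbered 0 in MM-401 cells for each mark. In 4-OHT cells they were 1 for H3K4me1 at Nes, 2 for H3K4me2 at Pax3 and Olig1, and 4 for H3K4me3 at Sox1, Pax6, Pax3 and Nes, with 30 to 278 tags each. The one at Pax3 lies in the block 5.3 to 2.8 kb upstream, which has a peak in every condition. Equal rates would give these 7 places 28.7 to 166 tags at untreated depth. The H3K4me1 peak of Nes, 12.5 to 10.0 kb upstream with 4.50 tags per M, had the most tags of them. It lies almost wholly outside the 10 kb window and only its inner end reaches in, but all its tags were counted. With peaks clipped to the window, the H3K4me1 log2 ratio of Nes for 4-OHT is -0.18 in place of -0.02. The share of peaks without an untreated overlap over all treated peaks was not computed. The counts of such peaks are therefore not read as particular to the 9 genes.

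Among 50 other neural genes in 5 groups by role, of which 48 or 49 had peaks in both libraries of a comparison, medians in MM-401 cells were again positive for H3K4me1 and H3K4me2. The median log2 ratio in MM-401 cells was 0.23 for H3K4me1, 0.25 for H3K4me2 and -0.07 for H3K4me3, and in 4-OHT cells 0.07, -0.03 and -0.01. Past 1.5-fold in either direction were 2, 1 and 4 of them in MM-401 cells and 3, 0 and 2 in 4-OHT cells for H3K4me1, H3K4me2 and H3K4me3, and the 3 lower ones were all for H3K4me3 in MM-401 cells. The shares over all genes were 16.8%, 5.91% and 9.23% in MM-401 cells and 14.9%, 5.07% and 4.52% in 4-OHT cells. By group, the H3K4me3 medians in MM-401 cells were 0.03 for early neural plate, -0.13 for forebrain and midbrain, -0.24 for dorsoventral, 0.12 for proneural and Notch, and -0.22 for radial glia and neuron genes. The 9 dorsoventral patterning genes, with the lowest median of the 5 groups, were lower in summed H3K4me3 in MM-401 cells at 9 of 9. None was past 1.5-fold, and 61.0% of all genes were higher. Their median log2 ratio was -0.02 per kb of peak and -0.18 in summed width. Pax6 and Olig2 relate to this group by role, and their H3K4me3 ratios for MM-401 differed in sign, at -0.42 and 0.30. Sox3, the X-linked relative of Sox1, had H3K4me1 of 10.3 in MM-401, 11.9 in 4-OHT and 2.17 in untreated cells, log2 ratios of 2.25 for MM-401 and 2.46 for 4-OHT. Sox10, a neural crest and oligodendrocyte factor, had H3K4me3 of 11.7 in MM-401, 79.4 in 4-OHT and 16.7 in untreated cells, the highest H3K4me3 ratio of the 50 in 4-OHT cells at a log2 of 2.25 (2.09 to 2.40). These sums take whole peaks that touch a window. The part of peak width or of neighbouring genes in the Sox3 and Sox10 ratios was not tested. The 2 most lowered of the 3 in H3K4me3 in MM-401 cells were Hesx1, a forebrain homeobox repressor, at 9.59 in MM-401, 17.9 in 4-OHT and 18.4 in untreated cells, and Slc1a3, a glial glutamate transporter, at 27.6 in MM-401, 66.4 in 4-OHT and 48.5 in untreated cells. Hes1, a Notch target, had the third H3K4me1 ratio past 1.5-fold in 4-OHT cells after Sox3 and Map2, at 60.5 in MM-401, 90.2 in 4-OHT and 49.9 in untreated cells.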

How the data were processed

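The study holds 14 libraries: 10 precipitated, each with 1 peak list, and 4 inputs. Per the file headers, peaks were called in each library alone against 1 input with MACS 1.4.2, at a p cutoff of 1e-05, a band width of 300 bp and at most 1 tag kept per position. The submitters' processing notes name Bowtie2, SAMtools 1.5, MACS2 and mm10, and the headers were followed for the caller. The deposited tag counts are duplicate-filtered tags in a peak. The deposited score is -10 times log10 of the MACS p-value and was used for filters. The deposited fold (a ratio to local background) was not used. The deposited percent is the MACS false discovery rate. Other deposited values are peak widths in bp.

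Genes were the 21883 protein-coding genes with positions in RefSeq GRCm38.p6. The 9 genes, the lists and the motifs were chosen with earlier results of these data known. All 9 were to be named, with neighbours in their windows and, of 50 other neural genes, at most the 3 of largest change past 1.5-fold per mark and treatment. Tags of whole peaks within 10 kb were summed, divided by filtered tags in M (1000000), and compared as log2 ratios with exact conditional binomial intervals; levels have exact Poisson intervals. Merged blocks and their split by starts were added after the data were examined. Starts follow the promoter table, or a gene end for Pax3 and Olig1. Sums were tested on simulated data. Python 3.11.15, pandas 2.3.3, numpy 2.4.6, scipy 1.17.1 and matplotlib 3.10.9 were used.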

Additional observations from a re-analysis of the deposited data

How the results depend on the processing

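Each group is 1 library, so no replicate could be left out. No paired analysis was possible because each group is 1 library and no result comes from a test. Per M tags in peaks, the H3K4me1 median log2 ratio for MM-401 was 0.43 and 2 of the 9 genes passed 1.5-fold, and the H3K4me2 median for 4-OHT was -0.15. Less the all-gene median, the H3K4me1 median for MM-401 was again 0.43 with 2 genes past 1.5-fold, that for 4-OHT was -0.18, and the H3K4me2 median for MM-401 was 0.25. With a window of 1 kb the H3K4me3 median for MM-401 was 0.21, Olig2 made 1 gene past 1.5-fold for 4-OHT, and 1 Mll1 peak was left. Per kb of peak the H3K4me3 median for MM-401 changed sign, to -0.04 from 0.07. Clipped peaks, a score of at least 100, lists of equal number and a fold of 2 left the medians and counts within their limits. Of 378 values of single genes under these alternatives, 298 stayed within their counting interval and 80 moved. Weak blocks rest on few tags, and the MM-401 libraries held 49.5% to 60.3% of the untreated tags. The causes of these shifts were not tested.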
